A study of Drosophila melanogaster with 18 samples.

Results

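The genes kirre, rst, sns and hbs, which encode the recognition receptors of fusing myoblasts, were followed through a targeted DamID (TaDa) series of Drosophila melanogaster embryos. They were chosen by symbol in the release 6 annotation and are 4 of 18358 annotated genes. Their spans hold 1036 GATC sites of the 400733 counted. Sites inside other genes nested in a span were left out, among them the 24 sites of w in kirre, and 806 sites remained. In TaDa, the Dam methylase fused to an RNA polymerase II subunit (Dam-PolII) is expressed under GAL4 control, methylates GATC sequences near the chromatin it contacts, and the methylated fragments are amplified and sequenced. A count at a GATC site is therefore read as polymerase occupancy, and CPM stands for counts per 1000000 counts of a library.

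The 18 libraries came from embryos at stages 10 to 13 and form 6 groups of 3 biological replicates, with 2 drivers and 3 genotypes per driver. The bap-GAL4 driver (bap) is active in the visceral mesoderm, whereas twi2xPE-GAL4 (twi) drives expression throughout the mesoderm, and methylated DNA was recovered from whole embryos. In the Alk.DN groups the driver expressed Dam-PolII together with UAS-Alk.EC.MYC, a MYC-tagged ectodomain of the Alk receptor tyrosine kinase that works as a dominant negative. In the Jeb groups it expressed Dam-PolII together with UAS-Jeb, which overexpresses Jelly belly, the ligand of Alk. In the Dam-PolII groups it expressed Dam-PolII alone, and these served as controls. All 6 groups thus carried the Dam-PolII transgene and a GAL4 driver.

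Library totals were between 1624349 and 14095376 counts. Several libraries went against their labels. The 9 GATC sites in the first exon of jeb, which the Jeb transgene can also fill, held 249 to 621 CPM in Jeb replicates 2 and 3 but 5.57 and 4.93 CPM in the libraries labelled Jeb replicate 1 of bap and twi. All Alk.DN and twi Dam-PolII libraries held 13.2 CPM or less there, whereas the bap libraries labelled Dam-PolII held 382, 367 and 470 CPM. The libraries labelled Jeb replicate 1 also drew 14.5% (bap) and 12.9% (twi) of their counts from sites that adjoin no purine fragment, a GATC fragment whose bases next to GATC are purines at each end, against 54.3% to 60.5% in the other 16 libraries. Results that rest on Jeb replicate 1 are given with and without it. The bap libraries labelled Dam-PolII are a whole group and cannot be left out, so comparisons that do not use them (Jeb against Alk.DN, and twi against bap in Alk.DN) are given beside those that do.

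Muscle fibres of the fly embryo form when founder cells fuse with fusion-competent myoblasts, and the circular visceral muscle of the gut forms in the same way. Kirre (also called Dumbfounded) and Rst (Roughest) are transmembrane proteins of the immunoglobulin superfamily that act in founder cells, where they serve redundantly as attractants. Rst is found in fusion-competent cells as well. Sns (Sticks and stones) and its relative Hbs (Hibris) belong to the same superfamily, are displayed by fusion-competent myoblasts and bind Kirre and Rst across the gap between the cells. In the visceral mesoderm, founder cells are specified by Jelly belly signalling through Alk, and kirre is a founder cell gene there.

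The kirre gene (FBgn0028369, chromosome X from 2740384 to 3134532, plus strand) spans 394149 bp. It has 6 annotated transcription starts and 22 genes nested in its introns, and 585 of its 807 sites were retained, 564 of them intronic. The rst gene (FBgn0003285, chromosome X from 2950399 to 2973834, minus strand) is itself nested in kirre, and its 53 sites were counted for rst alone.

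Occupancy was unevenly spread within the genes, and the sites that carried the counts are shown here for the X-linked members, as read from the plus strand of the release 6 reference sequence (RefSeq). Capitals mark the GATC that Dam methylates, and each 64-base window occurs 1 time in the genome. The first pair are the kirre sites with the highest mean level over the 6 groups, 3199 and 2656 bp before the fourth kirre start, and the second pair are the corresponding rst sites, 858 and 8685 bp inside rst. The next site gained the most in Alk.DN among kirre sites with either driver by adjusted p, and the last pair lie just outside nested genes, 200 bp beyond w and 7 bp upstream of the rst start.
kirre chrX:3096321-3096384: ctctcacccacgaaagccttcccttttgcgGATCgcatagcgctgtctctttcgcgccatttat
kirre chrX:3096864-3096927: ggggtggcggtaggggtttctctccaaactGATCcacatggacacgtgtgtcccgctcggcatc
rst chrX:2972946-2973009: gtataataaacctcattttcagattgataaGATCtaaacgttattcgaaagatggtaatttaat
rst chrX:2965119-2965182: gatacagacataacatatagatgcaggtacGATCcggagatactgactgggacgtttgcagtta
kirre chrX:3003139-3003202: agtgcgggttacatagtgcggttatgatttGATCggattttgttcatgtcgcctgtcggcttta
kirre chrX:2796636-2796699: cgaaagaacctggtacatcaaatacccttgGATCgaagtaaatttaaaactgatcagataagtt
kirre chrX:2973811-2973874: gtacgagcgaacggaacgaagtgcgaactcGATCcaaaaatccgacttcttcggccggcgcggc

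The sns gene (FBgn0024189, chromosome 2R from 8798489 to 8856091, plus strand) kept 92 of 97 sites. The hbs gene (FBgn0287864, chromosome 2R from 15011396 to 15042134, plus strand) kept 76 of 79 sites. Transposons annotated in the reference held 26 of the hbs sites and 70 of the kirre sites.

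Summed over its retained sites, kirre held 1497.1, 1403.2 and 1661.8 CPM in replicates 1 to 3 of bap Alk.DN, 1439.3, 1267.2 and 1049.7 CPM in bap Jeb, and 1006.6, 1078.8 and 1068.8 CPM in the bap libraries labelled Dam-PolII. With the twi driver it held 1450.4, 1451.2 and 1444.7 CPM in Alk.DN, 854.3, 1193.7 and 1296.6 CPM in Jeb, and 1050.3, 1009.0 and 1018.6 CPM in Dam-PolII. The 6 Alk.DN libraries held more than the 6 Dam-PolII libraries whichever the driver, and the Jeb libraries spread between and across them. In the order of group means, bap Alk.DN and twi Alk.DN overlapped each other, no twi Alk.DN library overlapped bap Jeb, and the neighbouring groups bap Jeb, twi Jeb, bap Dam-PolII and twi Dam-PolII overlapped in turn. Without Jeb replicate 1, twi Jeb (1193.7 and 1296.6 CPM) lay above both Dam-PolII groups.

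The receptor gene rst, whose product is found in both cell types, held 166.8, 177.8 and 155.8 CPM in the bap Alk.DN libraries, 84.4, 301.4 and 281.3 CPM in bap Jeb, and 183.5, 242.1 and 207.4 CPM in the bap libraries labelled Dam-PolII. Under twi it held 194.6, 201.7 and 187.8 CPM in Alk.DN, 173.0, 540.0 and 692.5 CPM in Jeb, and 531.8, 502.7 and 474.9 CPM in Dam-PolII. Levels of rst in twi Dam-PolII therefore stood apart from all 3 twi Alk.DN libraries, and Jeb replicate 1 was the lowest Jeb library with either driver. In the order of means each group from twi Dam-PolII through twi Jeb, bap Jeb, bap Dam-PolII and twi Alk.DN overlapped the next, and bap Alk.DN lay below. The overlaps of the Jeb groups rested on replicate 1. Without it, twi Jeb (540.0 and 692.5 CPM) lay above twi Dam-PolII. Likewise bap Jeb (301.4 and 281.3 CPM) lay above the bap libraries labelled Dam-PolII and below twi Jeb.

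The fusion-competent receptor sns held 490.7, 470.6 and 497.9 CPM in the bap Alk.DN libraries, 45.0, 198.4 and 267.8 CPM in bap Jeb, and 206.9, 266.0 and 256.6 CPM in the bap libraries labelled Dam-PolII. With the twi driver it held 559.5, 517.2 and 502.8 CPM in Alk.DN, 240.6, 879.1 and 1114.7 CPM in Jeb, and 1420.0, 1468.8 and 1489.0 CPM in Dam-PolII. The twi Dam-PolII libraries lay above every other library of the series, and both Alk.DN groups sat close together, between them and the bap libraries labelled Dam-PolII. Neighbouring groups overlapped for twi Jeb with twi Alk.DN and for bap Dam-PolII with bap Jeb, and at no other step of the order. Without Jeb replicate 1, twi Jeb (879.1 and 1114.7 CPM) lay above twi Alk.DN, while bap Jeb still overlapped bap Dam-PolII.

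Its relative hbs held 125.6, 78.8 and 101.7 CPM in the bap Alk.DN libraries, 21.0, 39.3 and 37.6 CPM in bap Jeb, and 28.1, 35.9 and 27.6 CPM in the bap libraries labelled Dam-PolII. Under twi it held 76.6, 88.7 and 82.6 CPM in Alk.DN, 29.96, 53.0 and 74.2 CPM in Jeb, and 55.1, 68.9 and 59.5 CPM in Dam-PolII. Both Alk.DN groups overlapped each other and lay above all other libraries, while the other 4 groups overlapped each neighbour in the order of means. Without Jeb replicate 1, bap Jeb (39.3 and 37.6 CPM) overlapped neither twi Jeb nor the bap libraries labelled Dam-PolII.

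**Figure D1:**
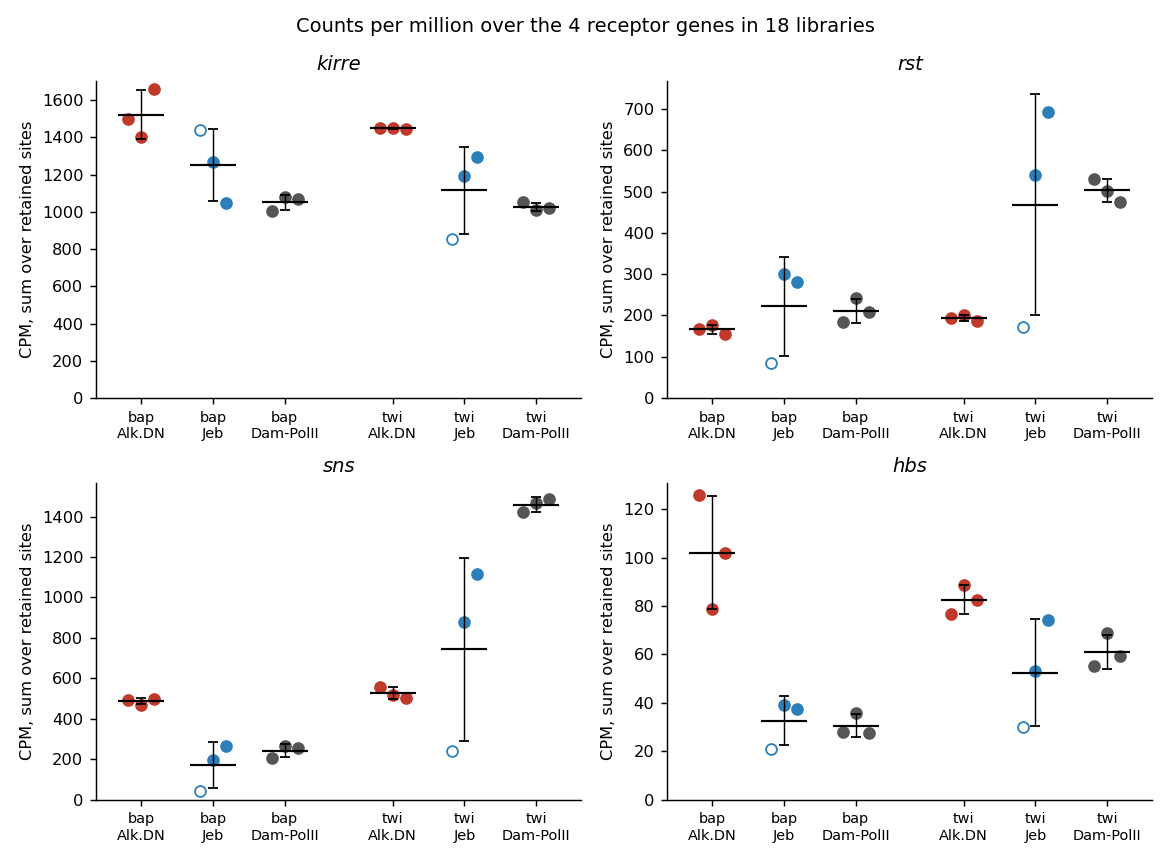
Summed CPM of each receptor gene (y axis, linear from 0) in every library, by driver and genotype. Points are single libraries, with Jeb replicate 1 open, and lines are group means with SD (n = 3). For sns, the 3 twi Dam-PolII libraries sit between 1420.0 and 1489.0 CPM, above all other libraries, whereas for kirre and hbs the Alk.DN libraries lie above the Dam-PolII libraries of the same driver.

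Because the genes differ in length, levels between them were compared as CPM per kb outside nested genes. In twi Dam-PolII, sns averaged 25.9 CPM per kb and rst 21.5, against 3.11 for kirre and 2.09 for hbs, with a median of 2.87 CPM per kb over all genes. There, sns stood at the 89.1 percentile of all genes and rst at the 87.2 percentile. In twi Alk.DN, sns averaged 9.36 CPM per kb and rst 8.31, with kirre at 4.39, hbs at 2.83 and the median gene at 5.13. The bap libraries labelled Dam-PolII placed rst first, at 9.002 CPM per kb, followed by sns at 4.32, kirre at 3.19 and hbs at 1.05, with the median gene at 2.17. In bap Alk.DN, sns had 8.65 CPM per kb, rst 7.12, kirre 4.61 and hbs 3.49, with the median gene at 4.36. The founder cell gene kirre never departed far from the median gene, between the 44.6 and 61.1 percentiles over the 6 groups, and hbs stayed below the median gene in each.

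Inhibition of Alk was compared with the control to ask which receptor genes lose or gain polymerase in the Alk.DN groups. Founder cell specification was not measured in these libraries. With the twi driver, sns and rst fell in Alk.DN and kirre and hbs did not pass the test. Mean occupancy of sns was 526.5 ± 29.5 CPM in twi Alk.DN and 1459 ± 35.4 CPM in the twi Dam-PolII libraries, and that of rst was 195 ± 6.95 and 503 ± 28.5 CPM (SD, n = 3 each). By the quasi-likelihood test of edgeR, with trimmed mean (TMM) scaling and Benjamini-Hochberg adjustment over all genes, the log2 fold change was -2.05 ± 0.07 for sns (adjusted p = 7.41e-10) and -1.95 ± 0.08 for rst (adjusted p = 4.47e-09), where ± is the standard error. Thus 2 of 4 members were called at an adjusted p under 0.01, where 28.5% of all genes tested were called. The fold change was -0.08 ± 0.05 for kirre (adjusted p = 0.255) and -0.15 ± 0.13 for hbs (adjusted p = 0.391).

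With the bap driver, rst fell in Alk.DN, whereas sns and hbs were called higher. The means were 167 ± 10.97 CPM for rst in bap Alk.DN and 211 ± 29.5 CPM in the bap libraries labelled Dam-PolII, 486 ± 14.1 and 243 ± 31.8 CPM for sns, and 102 ± 23.4 and 30.6 ± 4.65 CPM for hbs (SD, n = 3 each). The log2 fold changes were -0.87 ± 0.14 for rst (adjusted p = 8.5e-05), 0.47 ± 0.12 for sns (adjusted p = 0.00492) and 1.21 ± 0.22 for hbs (adjusted p = 2.79e-04), again by edgeR with standard errors. Hence 3 of 4 members were called, against 35.9% of all genes. The kirre gene had a fold change of 0.00072 ± 0.09 (adjusted p = 0.996). The call on sns rested on all 6 libraries: leaving out any 1 of them gave fold changes of 0.32 to 0.49, none of which passed at an adjusted p under 0.01.

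The scale mattered for these directions. The median fold change over all genes was 0.13 (bap) and 0.15 (twi) with TMM scaling but 0.66 and 0.73 when libraries were scaled to their totals alone, as CPM values are. On totals, kirre was called higher in Alk.DN with both drivers, by 0.53 (bap) and 0.50 (twi), and rst with the bap driver missed the threshold at -0.34 (adjusted p = 0.0475). Relative to the median gene of the same scaling, kirre lay below with either driver on both of these scalings. The falls of sns and rst with the twi driver held on totals, at -1.47 and -1.37. Over all genes, 2042 were called higher and 2455 lower with the bap driver by TMM, against 3698 and 1357 on totals, and 1475 higher and 2644 lower with the twi driver, against 3901 and 1414.

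**Figure D2:**
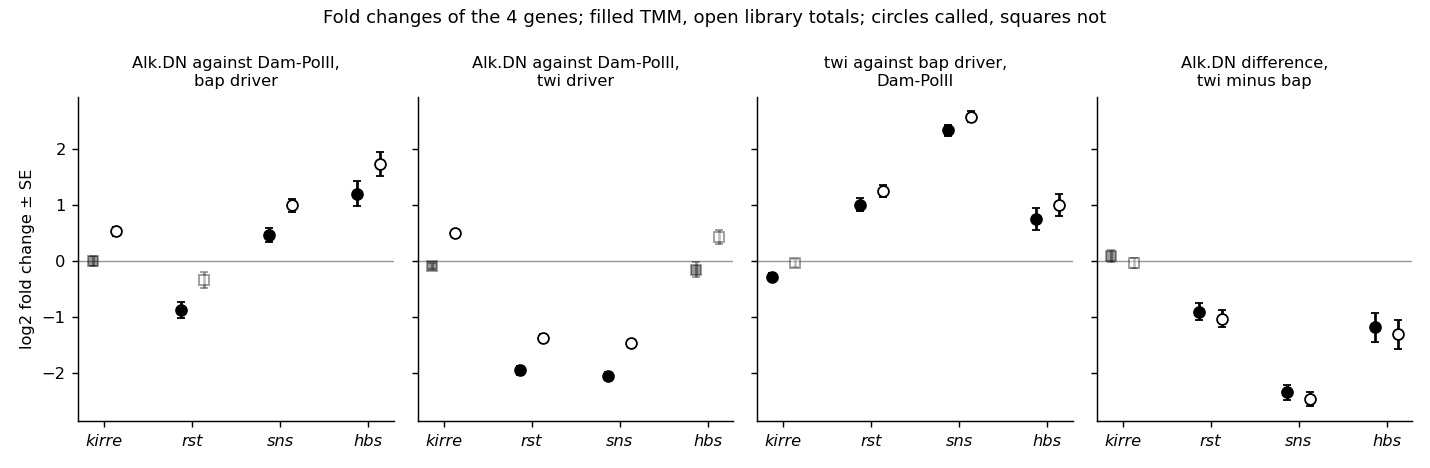
Log2 fold changes of the 4 genes by edgeR (y axis, bars are standard errors) for Alk.DN with each driver, for twi against bap in Dam-PolII and for the difference of the Alk.DN effect between drivers; filled points use TMM scaling, open points library totals, circles are called at an adjusted p under 0.01 and faded squares are not. With Alk.DN and TMM, sns is at -2.05 with the twi driver and at 0.47 with the bap driver, and hbs is at 1.21 with the bap driver.

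In bulk libraries of this kind, fewer cells of a type and less occupancy per cell cannot be told apart. Marker lists of tissues also differed between these groups, not all in 1 direction. Of all genes, 16.3% were called higher and 19.6% lower with bap, and 10.2% and 18.3% with twi. The 6 mesoderm markers summed to 3776.56 to 4101.15 CPM in twi Alk.DN and 6879.66 to 7430.99 CPM in the twi Dam-PolII libraries, and all 6 were called lower. With bap they summed to 4106.01 to 4190.22 and 5496.89 to 5652.52 CPM, with 3 called lower. The 6 visceral mesoderm markers summed to 1329.12 to 1713.84 CPM in bap Alk.DN, against 2915.82 to 3233.99 CPM in the bap libraries labelled Dam-PolII, with 4 called lower, and to 665.254 to 705.422 and 938.464 to 1020.43 CPM in the twi groups, with 6 called lower. The 6 markers of neurons and glia summed to 643.62 to 719.968 CPM in bap Alk.DN, against 331.051 to 366.08 CPM in the bap libraries labelled Dam-PolII, with 2 called higher and 1 lower, and 2 were called lower with twi. Their sums with twi were 747.329 to 771.246 CPM in Alk.DN and 705.551 to 751.43 CPM in Dam-PolII, which overlap. The 4 hemocyte markers, of which He was at or under 3 counts in every library of all groups, summed to 111.808 to 133.848 and 33.0696 to 51.1521 CPM in these bap groups, with 2 called higher, and to 170.705 to 181.15 and 198.182 to 226.047 CPM in the twi groups, with 1 higher and 2 lower. The 3 endoderm markers summed to 127.53 to 135.983 CPM in twi Alk.DN and 259.372 to 277.625 CPM in the twi Dam-PolII libraries, with all 3 called lower and a median log2 fold change of -1.55, and 1 was lower with bap. Of 2 tracheal markers, 1 was higher with bap and none was called with twi. They summed to 110.638 to 137.29 CPM in bap Alk.DN, against 35.9959 to 47.0394 CPM in the bap libraries labelled Dam-PolII. In twi Alk.DN and twi Dam-PolII they summed to 132.1 to 135.514 and 49.5202 to 67.5335 CPM. The part of these tissues in the changes of the receptor genes was not tested.

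The test of single sites located the changes within each gene. A site was tested when enough libraries passed the count filter, whichever their group, so a site low in Dam-PolII can enter through Alk.DN and the reverse. Counts of tested sites above or below 0 therefore lean to the group with more counts, and the sites of a gene are not replicates. In twi Alk.DN, 27 of 43 tested rst sites and 25 of 70 tested sns sites were called lower than in twi Dam-PolII and none higher, against 8.43% of all sites tested that were called lower and 2.67% called higher. All 43 rst sites had a fold change below 0, with a median of -1.96 on the log2 scale. At 181 tested kirre sites the calls were mixed, with 4 higher and 7 lower, and at 25 hbs sites none was called (3 had an unadjusted p under 0.05). In bap Alk.DN, 8 of 34 tested sns sites and 13 of 108 kirre sites were called higher than in the bap libraries labelled Dam-PolII, against 8.16% of all sites. Lower calls were made at 3 of 30 rst sites and 1 kirre site, against 12.3% of all sites. All 14 tested hbs sites had a fold change above 0 and none was called by edgeR, though 8 had an unadjusted p under 0.05. On library totals, 4 of these 14 were called higher. These counts depended on single libraries: the 25 member sites called with bap became 11 to 16 when any 1 library was left out. With twi the 63 called became 36, 31 and 29 without Alk.DN replicate 1, 2 or 3 and 60 to 66 without a Dam-PolII library. In a fit of all 18 libraries, 0 were called with bap and 2 with twi.

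On CPM, the difference between Alk.DN and Dam-PolII in sns varied along its length. Its first 5 kb, a window chosen after the values were seen, holds 6 sites. These held 39.6%, 35.5% and 37.6% of the sns counts in twi Alk.DN libraries against 61.5%, 63.8% and 60.3% in twi Dam-PolII libraries, and 44.8%, 44.2% and 39.3% in bap Alk.DN against 75.3%, 75.1% and 73.0% in the bap libraries labelled Dam-PolII. The share near the start was thus lower in every Alk.DN library than in any Dam-PolII library, with either driver. In the first 5 kb, sns held 198 ± 20.7 CPM in twi Alk.DN and 903 ± 31.8 CPM in the twi Dam-PolII libraries, but 208 ± 12.1 CPM in bap Alk.DN, against 181 ± 22.6 CPM in the bap libraries labelled Dam-PolII. Beyond it, sns held 328 ± 12.7 and 557 ± 31.1 CPM in the twi pair, and 278 ± 20.9 and 62.2 ± 9.72 CPM in the bap pair (SD, n = 3 each). On CPM, the higher sns sum of bap Alk.DN thus lay mostly beyond the first 5 kb. On this scale the median gene was higher in Alk.DN too, at 4.36 against 2.17 CPM per kb with bap and 5.13 against 2.87 with twi. Whether the lower share near the start is particular to sns was not tested.

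The same counts were tested site by site on both sides of this window, which describes the division and adds no separate support for it. With the bap driver none of the 6 sites near the start was called by edgeR, with a median log2 fold change of -0.21 (0.18 on library totals), while all 28 tested sites beyond had a fold change above 0, with a median of 2.06, and 8 were called higher. Sites beyond the window could pass the count filter through Alk.DN alone, so the number above 0 is a description and no test. With the twi driver all 6 sites near the start were called lower, with a median of -2.08, and so were 19 of 64 beyond, with a median of -1.39. The site with the strongest call in twi was 2R:8802176, in an intron 3687 bp inside sns. It held 88.6, 68.7 and 68.8 CPM in twi Alk.DN and 376.5, 418.4 and 395.8 CPM in the twi Dam-PolII libraries, which edgeR gave a log2 fold change of -2.92 (adjusted p = 6.64e-07). At this site bap Alk.DN held 101.1, 90.3 and 83.0 CPM and the bap libraries labelled Dam-PolII 75.6, 91.3 and 90.1 CPM, which overlap. A little further on, the intronic site 2R:8804827, 6338 bp inside sns, held 33.4, 25.5 and 51.8 CPM in bap Alk.DN, against 6.12, 7.95 and 7.89 CPM in the bap libraries labelled Dam-PolII, a fold change of 1.94 (adjusted p = 6.60e-04).

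**Figure D3:**
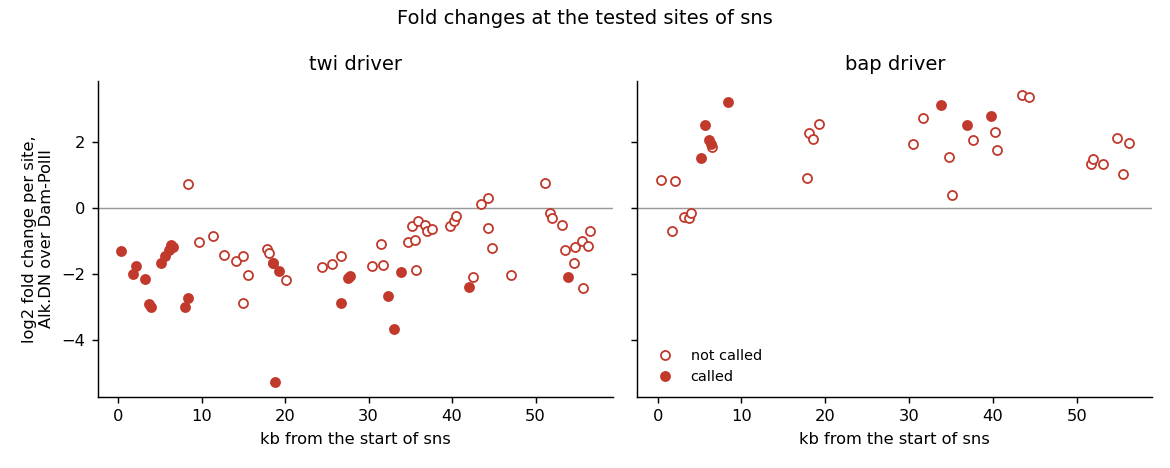
Log2 fold change of Alk.DN over Dam-PolII at each tested sns site (y axis) against its distance from the sns start in kb (x axis), with each driver in its own panel. Filled points are sites called by edgeR at an adjusted p under 0.01. With the bap driver the 28 sites beyond 5 kb all lie above 0, and with the twi driver the 6 sites within 5 kb all lie below 0. Sites could pass the count filter through either group alone.

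In rst, the site of highest level, 858 bp inside the gene and printed above, held 16.4, 19.4 and 19.7 CPM in twi Alk.DN and 74.8, 59.7 and 43.8 CPM in the twi Dam-PolII libraries, which edgeR gave a log2 fold change of -2.20 (adjusted p = 5.11e-05). The second, 8685 bp inside, held 9.07, 7.72 and 12.05 CPM in bap Alk.DN, against 24.8, 34.7 and 26.2 CPM in the bap libraries labelled Dam-PolII, a fold change of -1.96 (adjusted p = 3.32e-04). It was lower in twi Alk.DN too, at -1.87 (adjusted p = 7.27e-04). Both rst sites therefore separated Alk.DN from Dam-PolII without overlap in the groups named. The first 5 kb of rst held 39.1 ± 0.650% of its counts in twi Alk.DN and 36.0 ± 2.36% in twi Dam-PolII (SD, n = 3 each), a difference much smaller than that in sns.

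In kirre, occupancy was concentrated before the fourth start. The 8 sites in the 5 kb upstream of it, a window chosen after the values were seen, held 30.2% of kirre counts in bap Alk.DN and 39.0% in the bap libraries labelled Dam-PolII, and 20.3% in twi Alk.DN and 20.8% in twi Dam-PolII, although they are 1.37% of its sites. The site 3199 bp before this start held 240.7, 222.2 and 256.2 CPM in bap Alk.DN, against 190.9, 251.7 and 235.1 CPM in the bap libraries labelled Dam-PolII, ranges that overlap. In twi Alk.DN it held 135.9, 133.6 and 142.2 CPM, against 82.7, 86.1 and 107.4 CPM in the twi Dam-PolII libraries. The bap libraries of both genotypes thus held more at this site than the twi libraries, whereas the ranges of the whole gene overlapped between drivers in Dam-PolII and in Alk.DN.

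The kirre site with the strongest gain in Alk.DN lay 14118 bp after the third start and is the fifth of the sequences above. It held 14.4, 17.8 and 11.3 CPM in bap Alk.DN, against 1.17, 0.341 and 0.592 CPM in the bap libraries labelled Dam-PolII, which edgeR gave a log2 fold change of 4.00 (adjusted p = 1.60e-04). The 0.341 CPM of replicate 2 is the floor of 3 counts, so the size of this fold change rests on low counts. With the twi driver it held 19.6, 18.4 and 15.8 CPM in Alk.DN and 1.49, 2.33 and 1.34 CPM in Dam-PolII, a fold change of 2.83 (adjusted p = 1.27e-04). The strongest loss with each driver lay next to a nested gene. The site 7 bp upstream of the only annotated rst start held 27.0, 35.6 and 35.2 CPM in twi Alk.DN and 94.9, 87.2 and 70.2 CPM in the twi Dam-PolII libraries (-1.89, adjusted p = 3.38e-05). It lies at the rst start as well as in kirre, and the part of rst occupancy in its loss was not tested. The site 200 bp beyond w held 16.6, 29.0 and 15.9 CPM in bap Alk.DN, against 134.9, 114.7 and 115.7 CPM in the bap libraries labelled Dam-PolII (-2.97, adjusted p = 4.15e-06). It held 8.36, 151.6 and 59.1 CPM in bap Jeb replicates 1 to 3, 2.87, 53.3 and 38.5 CPM in twi Jeb, and 10.9, 9.13 and 4.15 CPM in twi Dam-PolII. The libraries with the most counts at this site were thus those with many jeb first exon counts. The part of the labels or of a transgene in this difference was not tested. Without the 77 kirre sites within 1000 bp of nested genes, a setting added after the data were seen, kirre changed by 0.12 (bap) and 0.0055 (twi) on the log2 scale, and neither passed the test.

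**Figure D4:**
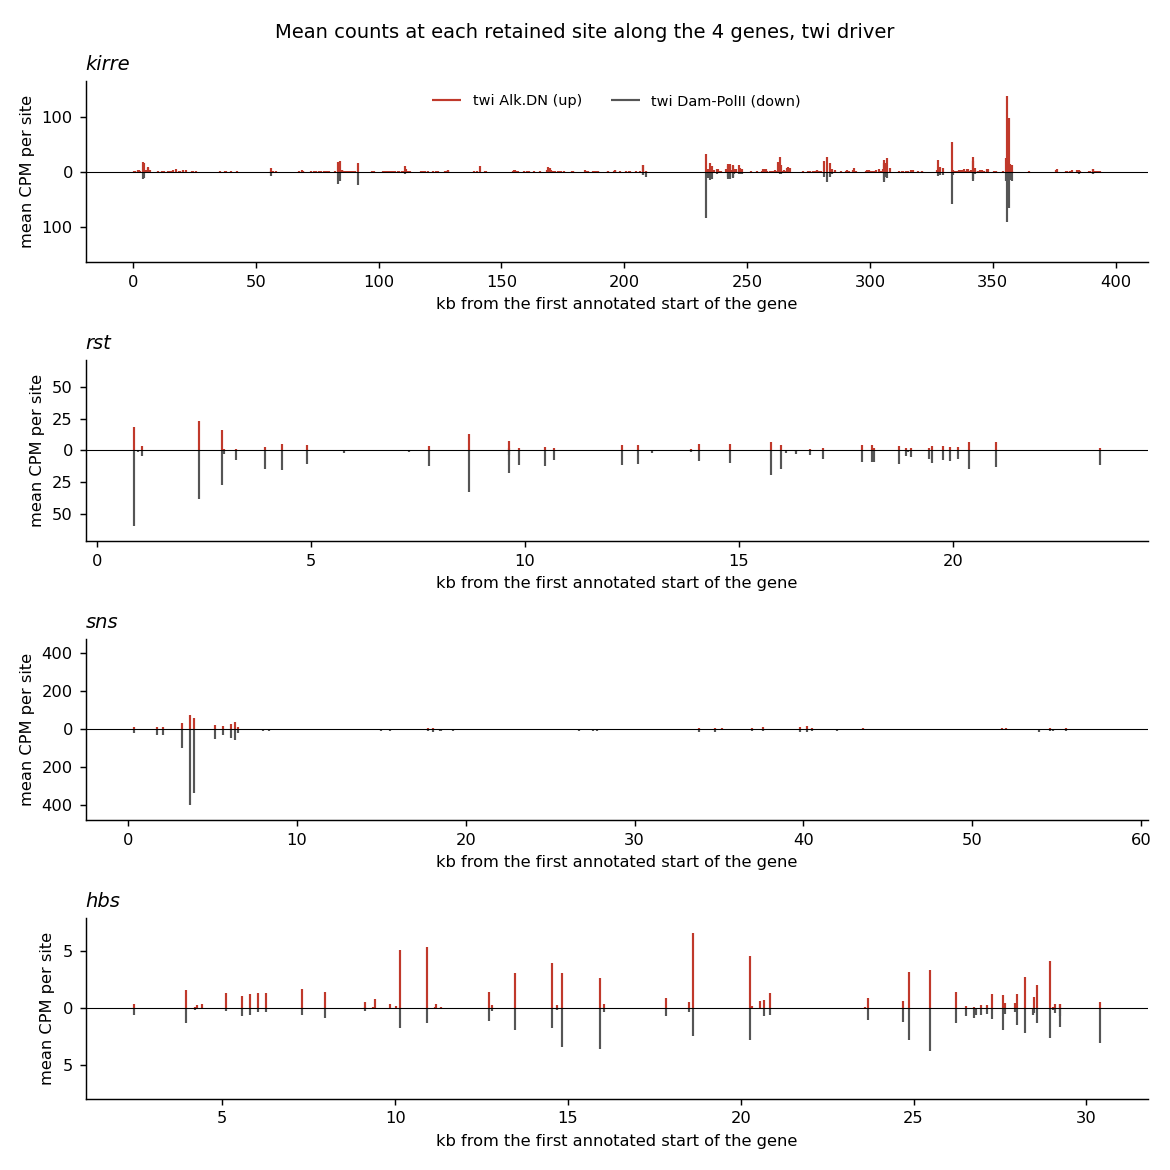
Mean CPM per retained GATC site (y axis) along each gene in kb from its first start (x axis), for twi Alk.DN (drawn upwards) and twi Dam-PolII (drawn downwards), each a mean of n = 3 with its own scale per gene. In sns the counts of Dam-PolII gather in the first 5 kb, 903 CPM against 198 CPM in Alk.DN, and in kirre they gather before the fourth start in both groups.

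**Figure D5:**
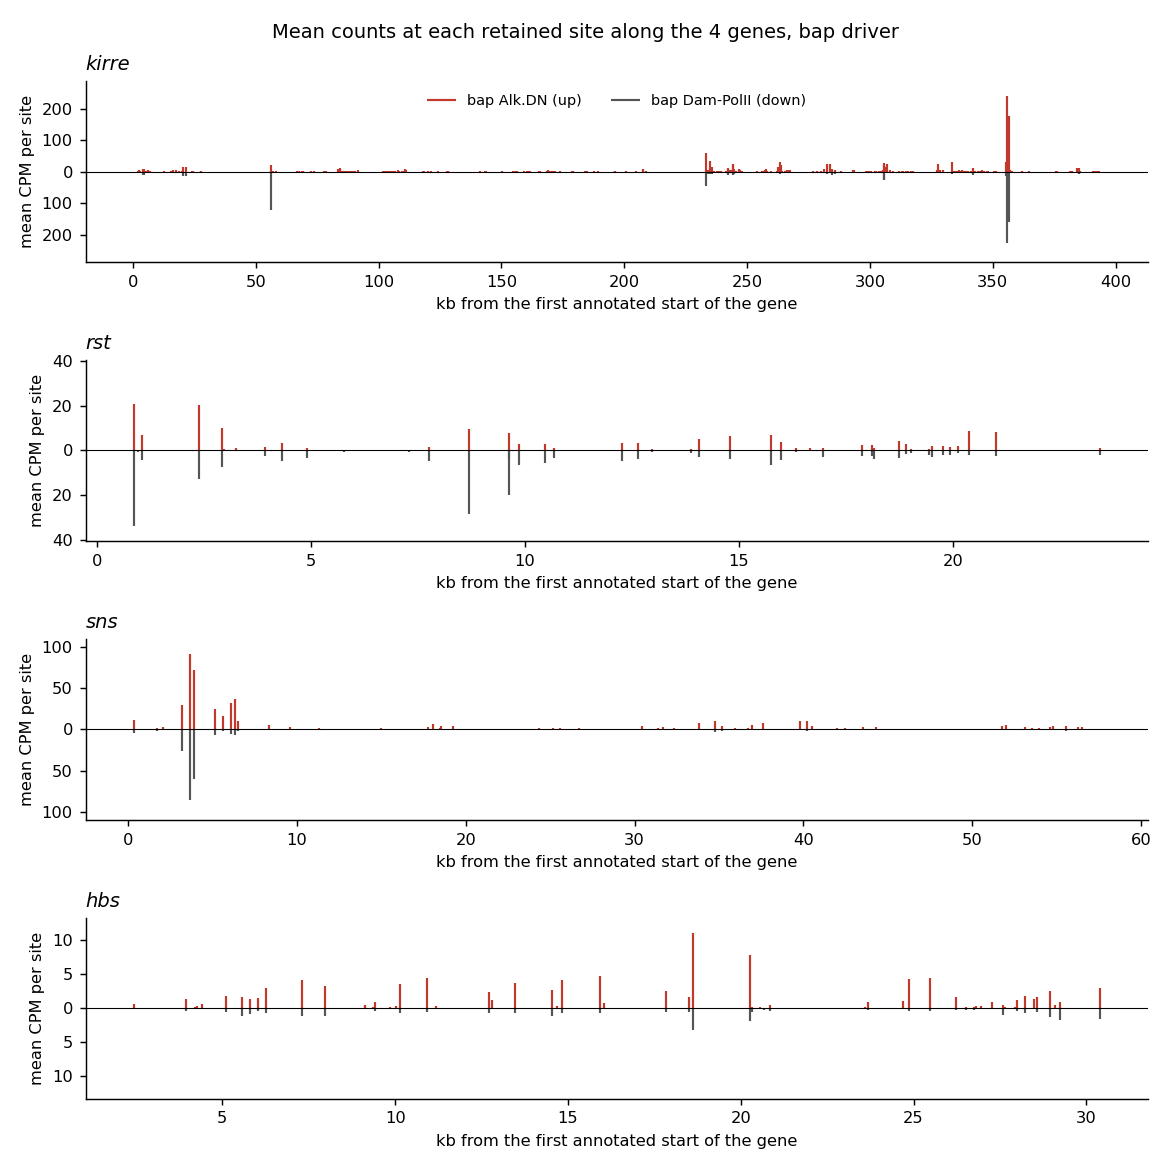
Mean CPM per retained GATC site (y axis) along each gene in kb from its first start (x axis), for bap Alk.DN (drawn upwards) and the bap libraries labelled Dam-PolII (drawn downwards), each a mean of n = 3 with its own scale per gene. Beyond the first 5 kb, sns holds 278 CPM in Alk.DN and 62.2 CPM in Dam-PolII.

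In hbs, the site of highest level, 2R:15030008 in an intron 18612 bp inside the gene, held 7.18, 11.5 and 14.5 CPM in bap Alk.DN, against 1.89, 4.32 and 3.16 CPM in the bap libraries labelled Dam-PolII. In the twi groups it held 4.32, 7.46 and 8.09 CPM in Alk.DN and 2.15, 3.15 and 1.95 CPM in Dam-PolII. The Alk.DN libraries were higher on CPM without overlap with each driver, but after TMM scaling the site was called with neither (1.41, edgeR adjusted p = 0.0331 with bap, and 0.92, adjusted p = 0.137 with twi). The 26 hbs sites in annotated transposons, whose reads may come from other copies, held 28.4 CPM in bap Alk.DN, against 8.56 CPM in the bap libraries labelled Dam-PolII, and 23.4 and 7.66 CPM in the twi pair. Without them, a setting added after the data were seen, the bap fold change was 1.21 (edgeR adjusted p = 0.00131) and the twi fold change -0.44 (adjusted p = 0.0288).

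The driver effect on the controls asks how occupancy in the mesoderm at large compares with that in the visceral mesoderm. All 4 members were called between twi Dam-PolII and the bap libraries labelled Dam-PolII, against 27.3% of all genes. The fusion-competent gene sns was higher with twi by 2.34 ± 0.10 on the log2 scale (edgeR adjusted p = 5.71e-12), as was hbs by 0.76 ± 0.20 (adjusted p = 0.00604). Of the others, rst was higher with twi by 1.01 ± 0.11 (adjusted p = 1.12e-06) and kirre was lower (-0.28 ± 0.07, adjusted p = 0.00497). The call on kirre did not hold on totals, where it was at -0.04, nor without its sites near nested genes, where it was at -0.21 (adjusted p = 0.0493), and the kirre CPM ranges overlapped. The call on hbs was lost without its sites near nested genes, at 0.70 (adjusted p = 0.0142), and in 4 of the 6 fits that left out 1 library, at 0.67 to 0.78. Leaving out a library moved kirre to between -0.30 and -0.26 with no call in 5 of 6 fits. Over all genes 1393 were called higher and 1948 lower by TMM, against 1985 and 1451 on totals.

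The same counts were also tested site by site between drivers. The gene sums are made of these sites, so the site calls show where the differences lie and add no separate support. Sites could again pass the count filter through either group alone. Of 61 tested sns sites, 43 were called higher in twi Dam-PolII than in the bap libraries labelled Dam-PolII and all 61 had a fold change above 0, against 8.99% of all sites called higher. Of 42 rst sites, 12 were called higher and none lower. At 117 kirre sites the calls went both ways, with 19 higher and 12 lower, against 11.5% of all sites called lower, and none of the 11 hbs sites was called (3 had an unadjusted p under 0.05). Of the 86 member sites called here, 52 were called without bap Dam-PolII replicate 1, 58 to 78 without any other single library, and 12 in a fit of all 18. The kirre site 25649 bp before the fourth start, X:3073901, held 54.0, 57.6 and 62.4 CPM in the twi Dam-PolII libraries and 6.85, 7.27 and 5.62 CPM in the bap libraries labelled Dam-PolII, a log2 fold change of 3.05. Marker lists differed over these libraries too, where 11.4% of all genes were called higher and 15.9% lower. The visceral mesoderm markers summed to 938.464 to 1020.43 CPM in the twi Dam-PolII libraries and 2915.82 to 3233.99 CPM in the bap libraries labelled Dam-PolII, with 1 of 6 called higher and 5 lower. Mesoderm markers summed to 6879.66 to 7430.99 and 5496.89 to 5652.52 CPM, with 3 of 6 higher and 1 lower, and hemocyte markers to 198.182 to 226.047 and 33.0696 to 51.1521 CPM, with 2 of 4 higher. For endoderm the sums were 259.372 to 277.625 and 158.703 to 208.078 CPM, with 2 of 3 higher and 1 lower, and for neurons and glia 2 of 6 were higher and 1 lower. The part of these tissues in the differences was not tested.

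In Alk.DN, which does not involve the bap libraries labelled Dam-PolII, the drivers were compared again. None of the members was called by edgeR between twi Alk.DN and bap Alk.DN, where 7.3% of all genes were called, although kirre and hbs had an unadjusted p under 0.05. The sns gene, which was 6-fold apart in mean CPM between the Dam-PolII groups, had a log2 fold change of -0.04 ± 0.08 (adjusted p = 0.782), and rst had 0.06 ± 0.10 (adjusted p = 0.752). The fold changes were -0.23 ± 0.07 for kirre (adjusted p = 0.0466), which limma-voom called at an adjusted p of 0.0041, and -0.47 ± 0.17 for hbs (adjusted p = 0.0894). A miss of the threshold does not show that the groups were alike. Over all genes, 262 were called higher and 780 lower by TMM, against 475 and 517 on totals.

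The difference of the Alk.DN effect between drivers was tested as an interaction in a fit of the 4 groups. It was called for 3 of 4 members, against 9.52% of all genes. The effect was more negative with twi than with bap by -2.34 ± 0.13 on the log2 scale for sns (edgeR adjusted p = 6.81e-11), by -1.19 ± 0.26 for hbs (adjusted p = 0.00259) and by -0.90 ± 0.15 for rst (adjusted p = 1.73e-04). For kirre it was 0.09 ± 0.11 (adjusted p = 0.661). The interaction rests on the bap libraries labelled Dam-PolII, and for hbs it missed the threshold without bap Alk.DN replicate 1, at -1.01 (adjusted p = 0.0108). For rst it missed the threshold over the sites with a purine fragment, at -0.62 (adjusted p = 0.0621). Over all genes, 819 were called above 0 and 589 below by TMM, against 646 and 740 on totals.

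Overexpression of Jelly belly was compared with the control to ask whether ectopic activation of Alk changed the same genes. With bap, the libraries labelled Jeb held fewer jeb first exon counts (5.57, 258 and 249 CPM) than those labelled Dam-PolII (382, 367 and 470 CPM), so that these values compare libraries by their labels only. No member was called, and no gene of all those tested was, with either driver (0% with bap and 0% with twi by edgeR, with 1307 and 870 genes at an unadjusted p under 0.05, while the Wald test of DESeq2 called 139 higher and 31 lower with bap, and 13 higher and 12 lower with twi). Fold changes with the bap driver were 0.58 ± 0.37 for kirre (adjusted p = 0.533), 0.22 ± 0.41 for rst, -0.41 ± 0.48 for sns and 0.30 ± 0.39 for hbs, and CPM ranges overlapped for each, though not for rst and hbs without Jeb replicate 1. The corresponding twi values were 0.44 ± 0.29 for kirre (adjusted p = 0.697), 0.12 ± 0.39 for rst, -0.76 ± 0.42 for sns (adjusted p = 0.677) and 0.05 ± 0.36 for hbs. The sns ranges did not overlap, since the highest twi Jeb library held 1114.7 CPM and the lowest twi Dam-PolII library 1420.0 CPM. None of 137 bap and 267 twi member sites was called, and none of all sites tested (0% with each driver). Without Jeb replicate 1, 398 of all 71244 sites tested were called higher and 196 lower with bap. With twi, 122 of 86846 were called higher and 32 lower.

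Replicate 1 stood apart within the Jeb groups. Mean sns occupancy was 745 ± 452 CPM in twi Jeb (SD, n = 3), with replicates 2 and 3 4.14-fold above replicate 1, and in bap Jeb they were 5.18-fold above it. For rst these ratios were 3.56 with twi and 3.45 with bap, whereas for kirre they were 1.46 and 0.805. At the 22 sns sites with a purine fragment, twi Jeb held 80.2, 60.9 and 78.7 CPM in replicates 1 to 3, and at the 70 sites without one it held 160.5, 818 and 1036 CPM, so that in twi Jeb the sns shortfall of replicate 1 lay at the sites without one. In bap Jeb the 22 sns sites with a fragment held 3.07, 8.92 and 17.9 CPM. The rst sites with a fragment held 42.9, 86.8 and 59.1 CPM in bap Jeb and 96.4, 114.8 and 134.6 CPM in twi Jeb. In these sums replicate 1 was the lowest too. Without replicate 1, Jeb against Dam-PolII still called no member by edgeR, against 1.72% of all genes with bap and 0.819% with twi. Unadjusted p was under 0.05 for rst with bap (0.46 ± 0.19, adjusted p = 0.195) and for kirre (0.42 ± 0.12, adjusted p = 0.0759), sns (-0.41 ± 0.12, adjusted p = 0.105) and rst (0.43 ± 0.14, adjusted p = 0.147) with twi.

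Jeb was also set against Alk.DN, a comparison that uses neither Dam-PolII group. With all libraries no member was called with bap, where 0% of genes were called by edgeR and 3374 genes had an unadjusted p under 0.05, or with twi, where 0.209% were called. Without twi Jeb replicate 1, 3 of 4 members were higher in twi Jeb than in twi Alk.DN, against 26.7% of all genes. Mean occupancy of rst was 616 CPM in twi Jeb replicates 2 and 3 and 195 CPM in twi Alk.DN (log2 fold change 2.47 ± 0.13, adjusted p = 1.86e-06). For sns the means were 997 and 526.5 CPM (1.73 ± 0.12, adjusted p = 9.60e-06), and for kirre 1245 and 1449 CPM (0.59 ± 0.10, adjusted p = 0.0019), so that kirre was lower on CPM and higher after TMM scaling. The twi fold change of hbs was 0.43 ± 0.17 (adjusted p = 0.0730).

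With the bap driver and without Jeb replicate 1, rst was higher in bap Jeb than in bap Alk.DN, with means of 291 and 167 CPM for which edgeR gave a log2 fold change of 1.34 ± 0.21 (adjusted p = 3.99e-04). This was 1 of 4 members, against 12.2% of all genes. The fold change was -0.54 ± 0.20 for sns (adjusted p = 0.0640), -0.87 ± 0.30 for hbs (adjusted p = 0.0522) and 0.15 ± 0.17 for kirre (adjusted p = 0.560). The pattern of rst and sns thus differed between drivers in point estimates, with sns on opposite sides of 0, and that difference was not tested in this comparison.

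The other genes of the fusion pathway were taken as a list of 17, all of which were tested. Apart from the transcription factor lmd, they act with or below the receptors. The list was chosen with earlier results of these data known, so its calls describe the list and are no test of enrichment. In twi embryos, 12 of the 17 were lower in Alk.DN than in Dam-PolII and none was higher, where 18.3% of all genes were called lower and 10.2% higher, with a median log2 fold change of -1.10 against 0.15 over all genes (edgeR). On library totals 9 were lower and 2 higher, with a median of -0.52 against 0.73. The lowest adjusted p belonged to Vrp1, a WASp-binding regulator of actin in fusion-competent cells, with 219 ± 8.45 CPM in twi Alk.DN and 1238 ± 14.96 CPM in the twi Dam-PolII libraries (-3.08 ± 0.06). Next came lmd, the transcription factor that programmes fusion-competent myoblasts, with 168 ± 5.61 and 689 ± 44.5 CPM (-2.61 ± 0.07). Rac2, a small GTPase, had 179 ± 9.60 and 400 ± 31.0 CPM (-1.73 ± 0.08), and mbc, which encodes a Rac exchange factor, had 627 ± 27.2 and 900 ± 28.4 CPM (-1.10 ± 0.06).

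With the bap driver, 8 of the 17 were lower in Alk.DN than in the bap libraries labelled Dam-PolII and none was higher, where 19.6% of all genes were called lower and 16.3% higher, with a median of -0.59 against 0.13 over all genes. On totals 2 were lower and 2 higher, with a median of -0.06 against 0.66, so that most of these calls depended on the scaling. The named genes were siz (-1.27 ± 0.09), an Arf exchange factor that acts in founder cells, Cip4 (-0.76 ± 0.09), an F-BAR protein, Arf6 (-1.30 ± 0.16), a small GTPase, and mbc (-0.70 ± 0.10). Between drivers in Dam-PolII, 5 of the 17 were higher with twi and 3 lower, where 11.4% of all genes were called higher and 15.9% lower. Vrp1 and lmd had the strongest calls, with 1238 ± 14.96 CPM in the twi Dam-PolII libraries and 195 ± 4.18 CPM in the bap libraries labelled Dam-PolII for Vrp1 (2.43 ± 0.08), and 689 ± 44.5 and 125 ± 22.9 CPM for lmd (2.22 ± 0.13), while siz and Cip4 were lower (-0.97 ± 0.07 and -0.89 ± 0.09). Jeb against Dam-PolII called none of the 17 with either driver, with 1 at an unadjusted p under 0.05 in each. Without Jeb replicate 1 it again called none, with 4 (bap) and 2 (twi) at an unadjusted p under 0.05. Jeb against Alk.DN called none of the 17 with all libraries. Without Jeb replicate 1 it called 4 higher with bap and 12 with twi, and none lower. Of all genes, 12.2% (bap) and 26.7% (twi) were then called in either direction.

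Genes whose log2(CPM + 1) followed each receptor gene most closely over the 18 libraries were sought among 14897 genes, as a description only, since libraries share groups and depth. For rst the nearest were E(spl)mdelta-HLH (Pearson r = 0.97), a Notch target, lmd (0.96) and sna (0.95), a mesodermal repressor. For sns they were Pvr (0.96), a receptor tyrosine kinase, Gprk2 (0.96) and Rabex-5 (0.95). For hbs they were PH4alphaPV (0.95), kuz (0.95), a metalloprotease, and CG46388 (0.95), and for kirre Sdc (0.92), the heparan sulphate proteoglycan syndecan, tty (0.90) and Lrp4 (0.90). Among the receptor genes themselves, r was 0.78 between rst and sns, 0.66 between sns and hbs, 0.59 between kirre and hbs, 0.19 between rst and hbs, -0.09 between kirre and sns and -0.39 between kirre and rst. Without Jeb replicate 1 of both drivers (16 libraries) the nearest genes were different ones for kirre, rst and sns, among them Brd for rst (0.98) and srp for sns (0.96), whereas PH4alphaPV was again among the nearest 3 of hbs. Among the receptor genes r was then 0.68 between rst and sns, 0.50 between sns and hbs, 0.76 between kirre and hbs, -0.13 between rst and hbs, -0.07 between kirre and sns and -0.51 between kirre and rst.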

How the data were processed

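DNA methylated by Dam-PolII was profiled in 18 libraries of stage 10 to 13 embryos. Paired reads were aligned by the authors with bowtie2 against release 6 of the fly genome, and the deposited table gives unscaled counts of read ends on fragment edges for each GATC site in each library. Further tables of the series, merged peaks with the authors' own test results, were not used here. Groups came from the labels; bap Alk.DN replicate 3 has an uninformative title and was placed by its other fields. Positions were checked against the release 6 reference (383661 of 383661 sites on the chromosomes read GATC), and genes were taken from the Ensembl annotation of that release.

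Counts were summed over the retained sites of each gene, kept by filterByExpr (min.count 10) in the libraries compared, scaled by TMM on library totals and tested by the two-sided quasi-likelihood F-test of edgeR 4.0.16 (R 4.3.3), with Benjamini-Hochberg adjustment over all genes, or all sites for single sites. Calls were made at an adjusted p under 0.01. The standard error is the absolute log2 fold change divided by the square root of F. Each fit used only the groups compared. Totals ranged from 1624349 to 14095376 counts. A floor of 3 counts, 0.213 CPM in the deepest and 1.85 CPM in the shallowest library, served to describe low sites and markers, and counts under it stayed in the sums and tests. Replicates are called biological in the study's methods, and p-values measure the spread between them.

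Named sites were, per gene, the 2 of highest mean level and, per comparison and direction, the called one of smallest adjusted p. Fusion genes named were the 4 of smallest adjusted p per comparison, and genes of like pattern the 3 of highest r. Members, lists and windows were chosen with earlier results of these data known. Alternatives were DESeq2 size factors, library totals, other filters (1 or 50 counts), limma-voom (limma 3.58.1), the Wald test of DESeq2 1.42.0, a single fit of all 18 libraries, a replicate block, a threshold of 0.05, other site sets, and leaving out each replicate. The sites near nested genes and in transposons were left out as settings added after the data were seen. The gene and site fits were tested on simulated data.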

Additional observations from a re-analysis of the deposited data

Results flagged for a closer look

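The effect of Alk.DN differed between drivers by the interaction test for 3 of the 4 genes. The twi effect minus the bap effect was -2.34 on the log2 scale for sns, -1.19 for hbs and -0.90 for rst (edgeR adjusted p of 6.81e-11, 0.00259 and 1.73e-04), and for sns the 3 twi Alk.DN libraries lay below all twi Dam-PolII libraries while the 3 bap Alk.DN libraries lay above the bap libraries labelled Dam-PolII. The bap side of each value rests on the bap libraries labelled Dam-PolII, whose part in the difference was not tested.

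The 24 sites of w inside kirre, which the kirre sums leave out, held 956 CPM on average in bap Jeb, with 199, 1823 and 846 CPM in replicates 1 to 3, against 194, 170 and 183 CPM in the bap libraries labelled Dam-PolII. The bap Alk.DN libraries held 83.3, 40.5 and 46.3 CPM there.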

How the results depend on the processing

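Of 735 fold changes of the 4 genes recomputed under alternatives, 678 kept their direction and their side of the threshold (47 of these changed sign with no call in either fit), 39 lost a call, 16 gained one and 2 reversed. The falls of sns and rst in twi Alk.DN were called in all 20 alternatives run for each (-2.08 to -1.04 and -2.10 to -1.37), as was the higher sns of twi Dam-PolII. The cause of the following changes was not tested.

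Library totals in place of TMM gave kirre 0.53 in bap Alk.DN, a reversed 0.50 in twi Alk.DN, and rst -0.34 in bap Alk.DN. In the bap comparison 41 of 186 tested member sites were then called. Of all 71052 sites, 9424 were called higher and 5877 lower. One fit of all 18 libraries, in which the Jeb libraries add to the spread, lost the bap Alk.DN calls (rst -1.02, sns 0.32, hbs 1.06; 0 members and 0 sites called), the interactions (rst -0.91, sns -2.35 at an adjusted p of 0.0357, hbs -1.18; 0 members), and left 2 sites called in twi Alk.DN, and 1 member and 12 sites between drivers in Dam-PolII; in twi Jeb against Alk.DN it called 1 member. Sites within 1000 bp of a start gave, in bap Alk.DN, rst -0.86 and sns 1.09 with 0 members called, interactions of -1.06 for rst and 1 member, and between drivers in Dam-PolII 1 member and a reversed kirre at 0.63; hbs gave no value there. Keeping every gene with at least 1 count gave sns 0.38 in bap Alk.DN. Using all sites of the span, nested genes included, kirre was -0.47 in twi Alk.DN. Sites with a purine fragment gave interactions of 0.63 for kirre, -0.62 for rst and -1.04 for hbs, 2 members in twi Jeb against Alk.DN, and 1 between drivers in Alk.DN. The Wald test called 2 members in twi Jeb against Alk.DN, 38 of 186 sites in bap Alk.DN and 1 of 137 in bap Jeb, and limma-voom 1 member between drivers in Alk.DN. Over all sites the Wald test called 8996 higher and 10348 lower of 71052 in bap Alk.DN, and 512 and 91 of 61039 in bap Jeb. At an adjusted p under 0.05, 1 member was called in twi Jeb against Alk.DN and 1 between drivers in Alk.DN. With Alk.DN, 63 of 186 (bap) and 107 of 319 (twi) member sites were called at that threshold. Of all sites, 12278 were then called higher and 13570 lower of 71052 with bap, and 10789 and 14946 of 116694 with twi. Leaving out sites near nested genes, chosen after seeing the data, left 2 members between drivers in Dam-PolII.

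Leaving out each library in turn, without bap Alk.DN or bap Dam-PolII libraries sns ranged from 0.32 to 0.49 in bap Alk.DN, with no fit calling it, and the hbs interaction from -1.43 to -1.01. Members called ranged from 0 to 1 in bap Jeb against Alk.DN, from 0 to 3 in twi Jeb against Alk.DN (without Jeb replicate 1 in each) and from 2 to 3 between drivers in Dam-PolII. For member sites, bap Alk.DN had 11 to 16 called, twi Alk.DN had 29 to 66, bap Jeb had 0 to 1, and the Dam-PolII groups of the drivers had 52 to 78.

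The replicate numbers did not pair the libraries, since correlations of the deviations of same-numbered libraries ran from -0.095 to 0.021. With the number as a replicate block, sns was at -2.05 in twi Alk.DN, and 0 of 36 calls changed. Depth limits the site tests: in the bap and twi Alk.DN comparisons, 14 and 25 of the 76 hbs sites and 108 and 181 of the 585 kirre sites passed the filter.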
